A study of Homo sapiens with 6 samples.

Results

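Cholesterol synthesis and its transcriptional regulator SREBP2 were followed through 8 genes, chosen by their symbols: SREBF2, which encodes SREBP2, and INSIG1, HMGCS1, IDI1, FDFT1, SQLE, MSMO1 and DHCR7. Each symbol matched 1 row, so the set makes up 8 of the 19940 gene rows. Total RNA, depleted of ribosomal RNA, was sequenced from U2OS, a human osteosarcoma line that stably overexpressed DCP1A, a factor of mRNA decapping, fused to GFP and was kept under 100 µg/mL G418. All cells grew in serum-containing medium and all carried this transgene. The isotonic group received medium with 150 mM sodium, supplemented with PBS as a mock treatment, for 4 h. The hypertonic group received medium brought to 300 mM sodium with concentrated PBS for 4 h. The rescue group received the hypertonic medium for 4 h and then isotonic medium for 4 h. Each group had 2 libraries, numbered 1 and 2. No isotonic group was harvested at the later time of the rescue group, so the return to isotonic medium, the later harvest and the second change of medium cannot be told apart. The labels do not say whether the transgenic line is 1 clone or whether the libraries of a group come from separate cultures. P-values therefore reflect only how far these particular libraries differ. That spread may be technical, and in the isotonic and hypertonic groups it includes the mismatch of labels and profiles described below.

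Total counts per library lay between 90196278 and 105991428, so that 3 counts corresponded to 0.0283 to 0.0333 CPM. This unit, used below, is the count scaled by the library total alone. The labels of the isotonic and hypertonic libraries did not match their profiles: isotonic 1 resembled hypertonic 2, with 39 of 17388 genes differing 2-fold or more, and isotonic 2 resembled hypertonic 1, with 52 such genes. Isotonic 1 and isotonic 2 differed at 3976 genes, hypertonic 1 and hypertonic 2 at 3925, and the rescue libraries at 20. SLC38A2, an amino acid transporter gene induced by hypertonic medium, stood at 341, 2727, 2697, 344, 550 and 537 CPM in isotonic 1, isotonic 2, hypertonic 1, hypertonic 2, rescue 1 and rescue 2. The labels were kept throughout, and a condition named below means the libraries labelled with it. DCP1A, whose reads can include the transgene, was at 764 to 927 CPM in the isotonic and hypertonic libraries and at 505 and 527 CPM in rescue. Of the bone and mesenchymal markers of the labelled line, COL1A1, SPARC, VIM and RUNX2 were above 5 CPM in all 6 libraries, whereas SP7, COL1A2 and IBSP were below 1 CPM in all 6.

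SREBP2 is made as a precursor in the membrane of the endoplasmic reticulum, where it is bound by SCAP. When sterols are scarce, SCAP escorts it to the Golgi, where a pair of proteases release the part that enters the nucleus and activates the genes of cholesterol synthesis and uptake. When sterols are plentiful, INSIG proteins hold SCAP and SREBP2 back. SREBF2 and INSIG1 are themselves targets of SREBP2, so the regulator, its brake and the enzymes form a feedback loop. The enzymes act in sequence: HMGCS1 and IDI1 belong to the mevalonate part, which makes isoprenoid units, and FDFT1, SQLE, MSMO1 and DHCR7 belong to the later part, which makes squalene and converts it to cholesterol.

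SREBP2 binds sterol regulatory elements next to sites of NF-Y and Sp1. The upstream windows of 4 of the genes are shown as examples: SREBF2 and INSIG1 for their matches to the sterol regulatory element and the E-box, MSMO1 and HMGCS1 to stand for either pattern of expression described below. Each window is the 250 bases upstream of a RefSeq start (GRCh38.p14), written 5′ to 3′ on the strand of the gene. Capitals mark matches, on either strand, to the sterol regulatory element TCACNCCAC, to the E-box CACGTG and to the NF-Y box CCAAT, whose reverse is ATTGG. The windows lie at chr22:41832855-41833104 (plus strand) for SREBF2, chr4:165327419-165327668 (plus strand) for MSMO1, chr5:43313413-43313662 (minus strand, the first of the starts listed) for HMGCS1 and chr7:155297628-155297877 (plus strand) for INSIG1.
SREBF2: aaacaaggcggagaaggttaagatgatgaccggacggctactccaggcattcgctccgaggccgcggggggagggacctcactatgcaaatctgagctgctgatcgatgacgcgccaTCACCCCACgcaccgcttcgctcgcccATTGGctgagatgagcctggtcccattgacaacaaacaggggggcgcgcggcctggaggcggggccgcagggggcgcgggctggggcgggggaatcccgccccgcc
MSMO1: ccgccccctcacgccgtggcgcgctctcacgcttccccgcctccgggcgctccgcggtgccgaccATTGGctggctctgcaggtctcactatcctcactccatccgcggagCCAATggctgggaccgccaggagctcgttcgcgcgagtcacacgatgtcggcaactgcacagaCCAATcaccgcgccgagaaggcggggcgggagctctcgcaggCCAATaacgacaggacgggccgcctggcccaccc
HMGCS1: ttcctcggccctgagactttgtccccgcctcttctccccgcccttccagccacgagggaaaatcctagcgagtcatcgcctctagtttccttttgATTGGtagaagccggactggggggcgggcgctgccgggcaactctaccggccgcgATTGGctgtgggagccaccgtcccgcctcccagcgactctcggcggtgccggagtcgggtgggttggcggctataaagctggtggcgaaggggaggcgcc
INSIG1: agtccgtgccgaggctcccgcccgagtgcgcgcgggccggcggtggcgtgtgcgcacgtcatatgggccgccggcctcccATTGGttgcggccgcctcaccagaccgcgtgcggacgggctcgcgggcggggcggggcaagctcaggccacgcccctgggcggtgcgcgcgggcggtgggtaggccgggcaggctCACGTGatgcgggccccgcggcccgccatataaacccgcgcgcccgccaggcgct

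The SREBF2 window held the only sterol regulatory element match among the 6 of the 8 genes found in the promoter table, 133 bases upstream of the start, with an NF-Y box downstream of it. By these letters the element occurs in 0.883% of all 35116 promoter windows. INSIG1 held an E-box 55 bases upstream, a match found in 6.345% of windows, and an NF-Y box at 170 bases. MSMO1 held 4 NF-Y boxes, at 185, 139, 76 and 34 bases upstream. The window of the first HMGCS1 start held boxes at 155 and 100 bases, and that of the other start listed held 0. Each of the 6 genes had an NF-Y box in at least 1 of its upstream windows, as had 36.997% of all gene symbols in the table. Each also had the GC box GGGCGG in at least 1 such window, as had 46.237%. These matches describe letters in a window and were not tested as binding sites.

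SREBF2 (chromosome 22, 41833079 to 41907308, GRCh38) was at 234 and 217 CPM in isotonic 1 and 2, at 229 and 229.8 CPM in hypertonic 1 and 2, with rescue 1 and 2 at 155 and 155 CPM. The 4 isotonic and hypertonic libraries lay close together, with isotonic 1 at 1.08 times isotonic 2, and both rescue libraries lay below all of them, with the rescue mean at 0.663 to 0.716 times their levels. SREBF2 fell in rescue by 0.83 on the log2 scale against isotonic (SE 0.0994, edgeR adjusted p = 0.0116) and by 0.87 against hypertonic (SE 0.0995, adjusted p = 0.0108). These fold changes use TMM scaling, whose factors make falls in rescue larger, and rises in rescue smaller, than the ratios of CPM. With scaling by library totals the change against isotonic was -0.54, while the median of all tested genes moved to 0.27, so that SREBF2 stood -0.81 from that median, as it did with TMM.

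INSIG1 (chromosome 7, 155297776 to 155310235), the sterol-sensing brake on SREBP2 transport, followed another pattern. Its levels were 21.1 and 50.3 CPM in isotonic 1 and 2, 50.1 and 21.1 CPM in hypertonic 1 and 2, and 28.2 and 26.3 CPM in rescue 1 and 2. Isotonic 2 and hypertonic 1 were the high libraries, at 2.39 and 2.38 times the other library of their group, and the rescue libraries lay between the high and the low pair. Neither comparison of rescue passed the test, with log2 fold changes of -0.72 against isotonic (95% interval -2.48 to 1.05, edgeR adjusted p = 0.483) and -0.72 against hypertonic (adjusted p = 0.482). These intervals carry the difference between the libraries of each label.

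HMGCS1 (chromosome 5, 43289395 to 43313512), the cytosolic HMG-CoA synthase at the entry to the mevalonate pathway, differed most of the 8 genes between the libraries of a label. It stood at 231 and 703 CPM in isotonic 1 and 2, at 684 and 229 CPM in hypertonic 1 and 2, with rescue 1 and 2 at 271 and 259 CPM. Again isotonic 2 and hypertonic 1 were high, at 3.05 and 2.98 times isotonic 1 and hypertonic 2, and the rescue mean was 1.15 times isotonic 1 but 0.377 times isotonic 2. The test did not pass for rescue against isotonic (log2 fold change -1.15, 95% interval -3.32 to 1.02, edgeR adjusted p = 0.366) or against hypertonic (-1.12, adjusted p = 0.374).

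IDI1 (chromosome 10, 1039152 to 1049170), the isomerase that makes dimethylallyl pyrophosphate, shared the high pair of HMGCS1 and INSIG1 but was lowest in rescue. Its levels were 16.3 and 28.2 CPM in isotonic 1 and 2, 30.02 and 15.5 CPM in hypertonic 1 and 2, and 10.2 and 10.6 CPM in rescue 1 and 2. Both rescue libraries lay below every other library, and their mean was 0.639 times isotonic 1 and 0.369 times isotonic 2. The change of -1.41 against isotonic (SE 0.506, 95% interval -2.76 to -0.067) did not pass after adjustment (edgeR adjusted p = 0.117), and that of -1.46 against hypertonic did not pass either (adjusted p = 0.110). DESeq2 called IDI1 lower in both comparisons, with adjusted p of 0.0312 and 0.0256.

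FDFT1 (chromosome 8, 11795573 to 11839309), the squalene synthase that commits isoprenoids to sterols, was at 157 and 127 CPM in isotonic 1 and 2, at 132 and 154 CPM in hypertonic 1 and 2, with rescue 1 and 2 at 91.6 and 91.8 CPM. Here isotonic 1 and hypertonic 2 were the higher pair, by 1.24 and 1.16 times, opposite to HMGCS1, and both rescue libraries lay below the other 4. FDFT1 fell by 0.92 against isotonic (SE 0.105, edgeR adjusted p = 0.0109) and by 0.94 against hypertonic (adjusted p = 0.0106). With scaling by library totals these calls were lost, at adjusted p of 0.0547 and 0.0532.

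SQLE (chromosome 8, 124998497 to 125022283), the squalene monooxygenase at a rate-limiting step of sterol synthesis, combined both patterns. It was at 150.2 and 210.4 CPM in isotonic 1 and 2, at 216 and 151 CPM in hypertonic 1 and 2, with rescue 1 and 2 at 69.9 and 67.6 CPM. Isotonic 2 and hypertonic 1 were again high, at 1.4 and 1.43 times the other library of their group, yet even the low pair was more than 2.18 times the rescue mean. Against isotonic SQLE fell by 1.70 (SE 0.327, edgeR adjusted p = 0.0295), the largest change of the 8 genes in that fit, and against hypertonic by 1.73 (adjusted p = 0.0281).

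MSMO1 (chromosome 4, 165327623 to 165343160), the sterol methyl oxidase that removes methyl groups from the sterol ring, varied least among the isotonic and hypertonic libraries. Its levels were 51.7 and 51.3 CPM in isotonic 1 and 2, 53.9 and 51.4 CPM in hypertonic 1 and 2, and 26.6 and 28.2 CPM in rescue 1 and 2. The rescue mean was 0.530 times isotonic 1 and 0.534 times isotonic 2. MSMO1 fell by 1.21 against isotonic (SE 0.139, edgeR adjusted p = 0.0110) and by 1.25 against hypertonic (adjusted p = 0.0105).

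DHCR7 (chromosome 11, 71428193 to 71452868), the reductase of the last step of the Kandutsch-Russell route to cholesterol, was at 61.5 and 54.1 CPM in isotonic 1 and 2, at 57.2 and 58.4 CPM in hypertonic 1 and 2, with rescue 1 and 2 at 27.7 and 30.1 CPM. The isotonic and hypertonic libraries overlapped each other, and the rescue mean was 0.470 to 0.534 times their levels. DHCR7 fell by 1.29 against isotonic (SE 0.117, edgeR adjusted p = 0.00911) and by 1.30 against hypertonic (adjusted p = 0.00922).

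**Figure D1:**
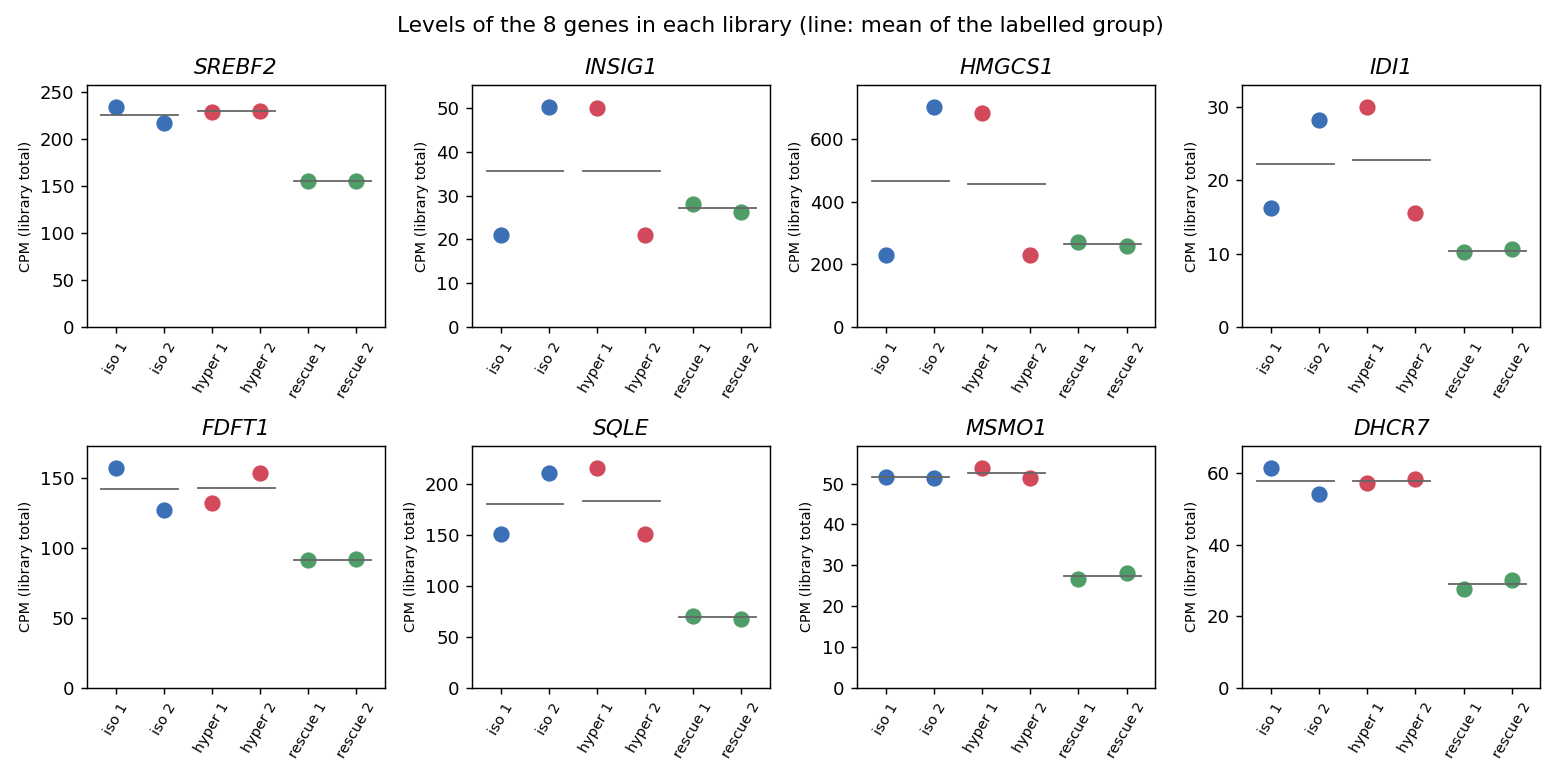
CPM by library total of each of the 8 genes (y axis, from 0) in the 6 libraries as labelled (x axis), 1 point per library, with iso and hyper for isotonic and hypertonic and a line at the mean of each labelled group. SREBF2, MSMO1 and DHCR7 are close across the isotonic and hypertonic libraries and lower in both rescue libraries, whereas HMGCS1 and INSIG1 are high in isotonic 2 and hypertonic 1, with rescue near the low pair.

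For rescue against isotonic, which asks what had changed by the end of the return to isotonic medium, 5 of the 8 genes were called lower and 0 higher. Over all 18208 genes tested, 13.5% were called lower (2453 genes) and 9.61% higher. The median log2 fold change of the 8 genes was -1.18, against -0.02 over all genes. Genes that differ between the libraries of a label get a wide spread, so a missing call does not show an absent change. For rescue against hypertonic the same 5 genes, SREBF2, FDFT1, SQLE, MSMO1 and DHCR7, were called lower, beside 13.8% of all genes (2508) lower and 9.86% higher, and the median was -1.19 against -0.02. The comparisons share the rescue libraries, and the isotonic and hypertonic groups each hold 1 library of either kind, so the second set of values adds no independent evidence. Summed over the 8 genes, the levels were 923 and 1442 CPM in isotonic 1 and 2, 1452 and 910.2 CPM in hypertonic 1 and 2, and 680.4 and 669 CPM in rescue 1 and 2. HMGCS1 alone supplies much of the difference between the high and the low pair in this sum. In bulk RNA, a lower level per cell and a loss of cells with a high level cannot be told apart.

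**Figure D2:**
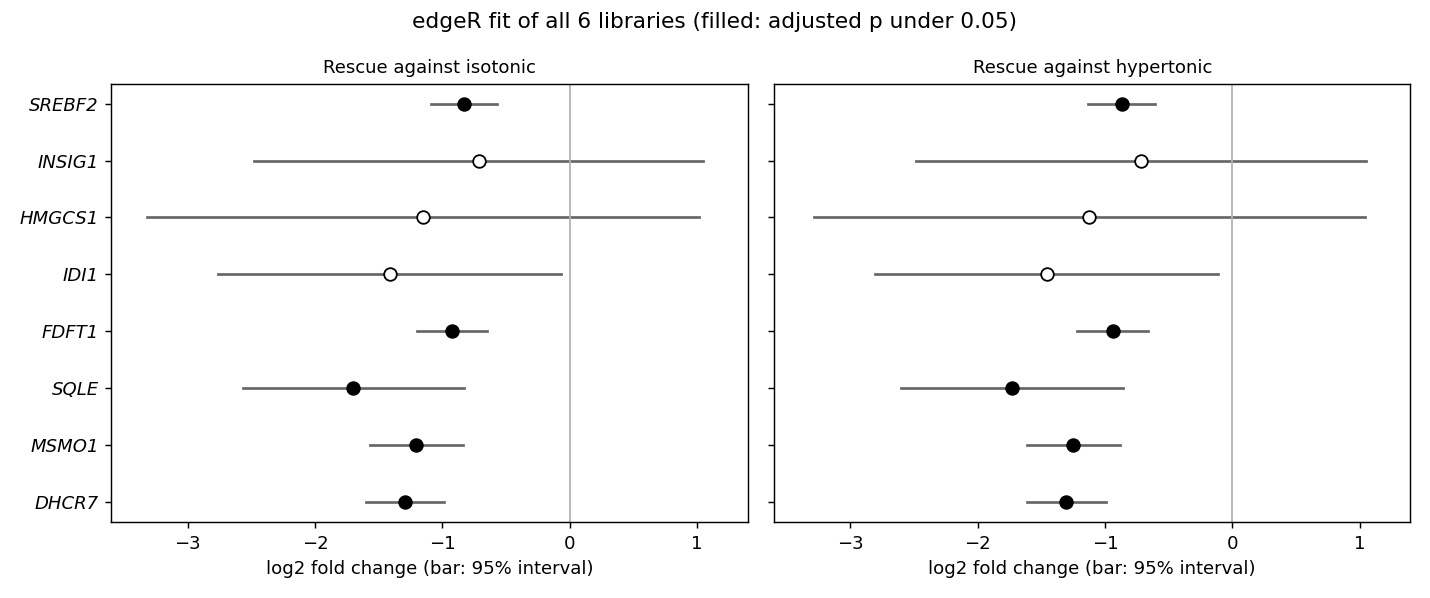
Log2 fold changes of the 8 genes in the edgeR fit of all 6 libraries (x axis; bars are 95% intervals), for rescue against isotonic (left) and rescue against hypertonic (right). Filled points mark an adjusted p under 0.05, and the wide intervals belong to INSIG1, HMGCS1 and IDI1.

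The calls changed when 1 library of the groups compared was left out, while fold changes moved little for some genes and much for others. Without isotonic 1 and without isotonic 2, the change in rescue against isotonic was -0.86 and -0.81 for SREBF2. For HMGCS1 it was -1.78 and -0.02. Where 1 library of a group was left out, the remaining one was assumed to vary like the other groups. Without isotonic 1 or without isotonic 2, the count of the 8 genes lower in rescue than in isotonic went from 5 to 0, as did the count over all genes, with smallest edgeR adjusted p of 0.0525 and 0.0548 and with 6 and 5 of the 8 genes at an unadjusted p under 0.05, beside 35.6% and 31.7% of all genes tested in those fits. Without rescue 1 or rescue 2 both counts were also 0 (smallest adjusted p of 0.159 and 0.169, 5 of the 8 genes at an unadjusted p under 0.05 each time, beside 20.6% and 19.9% of all genes). Against hypertonic the same count was 0 without hypertonic 1, hypertonic 2, rescue 1 or rescue 2, with smallest adjusted p of 0.0557, 0.0508, 0.156 and 0.165 and 5, 6, 5 and 5 of the 8 genes reaching an unadjusted p under 0.05, beside 31.6%, 35.9%, 20.8% and 20% of all genes. Scaling also set the balance over all genes: by library totals 1095 genes (6.01%) were lower and 2050 (11.3%) higher in rescue than in isotonic, in place of 2453 and 1749, and by upper quartiles 1404 (7.71%) were lower and 2091 (11.5%) higher. Of the 8 genes these settings called 4 and 5 lower and 0 higher. Against hypertonic the splits over all genes were 1098 and 2109 by library totals and 1448 and 2137 by upper quartiles, in place of 2508 and 1796.

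For hypertonic against isotonic, the comparison by label for raised sodium, 0 of the 8 genes passed in the fit of all 6 libraries. Log2 fold changes lay between -0.03 and 0.04, with an adjusted p of 1 for each. Each label held 1 library of either kind, so this fit averages over both kinds and cannot show what raised sodium did. Over all genes edgeR called 0% lower and 0% higher, while an unadjusted p under 0.05 was reached by 52 genes and 0 of the 8. The other tools, DESeq2 and limma voom, called 1 gene lower and 0 genes. The intervals differed widely between genes: SREBF2 lay between -0.23 and 0.29 and DHCR7 between -0.29 and 0.31, but HMGCS1 between -2.17 and 2.11. For all 8 genes the value near 0 averages differences of opposite sign in number 1 and number 2. Those differences were largest for HMGCS1, INSIG1, IDI1 and SQLE.

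Within number 1, in a fit without isotonic 2 and hypertonic 2 that takes the spread from the rescue libraries and assumes the single libraries vary like them, 5 of the 8 genes were higher in hypertonic and 0 lower. That threshold was passed by many genes, 31.6% of all higher and 32.6% lower. The changes were 1.73 for HMGCS1 (SE 0.0937), 1.41 for INSIG1 (SE 0.0991), 1.04 for IDI1 (SE 0.106), 0.68 for SQLE (SE 0.0826) and 0.22 for MSMO1 (SE 0.0915, edgeR adjusted p = 0.0291). SREBF2 at 0.13 (95% interval -0.039 to 0.293), DHCR7 at 0.05 (-0.124 to 0.228) and FDFT1 at -0.09 (-0.256 to 0.066) did not pass.

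Within number 2, in the fit without isotonic 1 and hypertonic 1, the direction was opposite. Here 4 of the 8 genes were lower in hypertonic and 0 higher, with 31% of all genes lower and 32.9% higher. The changes were -1.76 for HMGCS1, -1.397 for INSIG1, -1.004 for IDI1 and -0.62 for SQLE. MSMO1 at -0.14, DHCR7 at -0.03, SREBF2 at -0.06 and FDFT1 at 0.13 did not pass. Which direction belongs to raised sodium cannot be told from these genes, since the labels cross between the numbers.

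**Figure D3:**
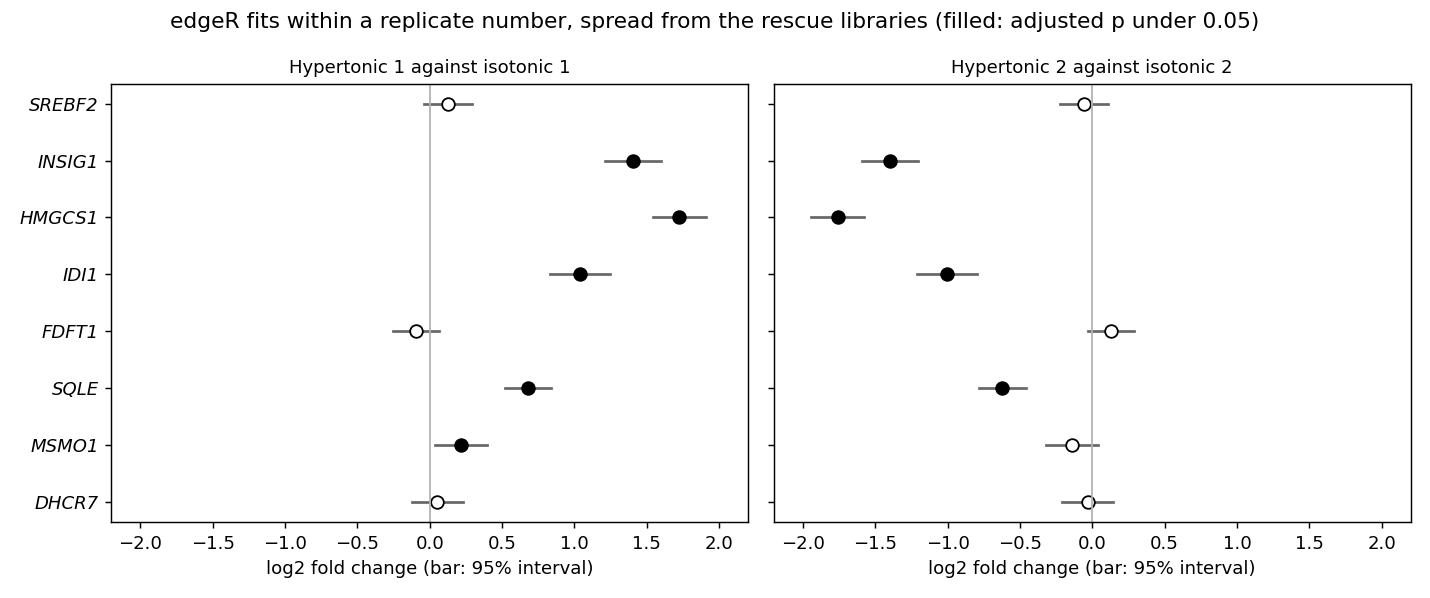
Log2 fold changes of the 8 genes for hypertonic against isotonic (x axis; bars are 95% intervals) in the fit of the number 1 libraries (left) and of the number 2 libraries (right), each with both rescue libraries. HMGCS1, INSIG1, IDI1 and SQLE lie on opposite sides of 0 in the panels, and SREBF2, FDFT1 and DHCR7 lie near 0 in both.

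The same fits give rescue against each kind of library. Against isotonic 1, 6 of the 8 genes were lower in rescue (all genes 38.6% lower and 40.5% higher), with HMGCS1 at -0.02 (95% interval -0.176 to 0.135) and INSIG1 at 0.15 (-0.022 to 0.320) not passing. Against isotonic 2 all 8 genes were lower (all genes 40.1% lower and 40.7% higher), with HMGCS1 at -1.78 and INSIG1 at -1.26. Against hypertonic 1 all 8 were lower (all genes 40.5% and 41%), and against hypertonic 2 it was 6 of 8 (all genes 38.6% and 40.5%). SREBF2 moved by -0.81, -0.86, -0.94 and -0.80 against isotonic 1, isotonic 2, hypertonic 1 and hypertonic 2, and DHCR7 by -1.31, -1.28, -1.37 and -1.25. For these genes the size of the fall was thus about the same whichever library rescue was set against.

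The rest of the pathway was read from lists of 63 genes, of which 62 were tested and which include the 8. In rescue against isotonic 15 were lower and 1 higher, at a median of -0.38, beside 13.5% of all genes lower and 9.61% higher at a median of -0.02. Of the 54 tested that are not among the 8 genes, 10 were lower and 1 higher, with a median of -0.20. By library totals the split of the 62 was 12 lower and 4 higher, beside 6.01% and 11.3% of all genes. By DESeq2 it was 23 lower and 5 higher, beside 19% and 16.8% of all genes. Against hypertonic it was 16 lower and 1 higher, beside 13.8% and 9.86%.

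In the mevalonate list 3 of 9 genes were lower against isotonic, beside 13.5% of all genes, ACAT2 and FDPS among them. ACAT2, which makes the acetoacetyl-CoA that feeds the pathway, stood at 45.9 and 44.6 CPM in isotonic 1 and 2, 47.3 and 45.6 CPM in hypertonic 1 and 2, and 26.4 and 24.95 CPM in rescue, and fell by 1.11 (SE 0.138, edgeR adjusted p = 0.0122). FDPS, the farnesyl diphosphate synthase, fell by 0.56 (adjusted p = 0.0421) and was not called with scaling by library totals (adjusted p = 0.353) or upper quartiles (0.135). MVD, the decarboxylase that makes isopentenyl pyrophosphate, was lower against hypertonic only (-1.20, adjusted p = 0.0488). Against isotonic its change was -1.10 (adjusted p = 0.0609), the difference between these comparisons was not tested, and the call was lost with upper quartile scaling (0.0839), library total scaling (0.154) or no filter on low counts (0.0506).

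In the sterol list 6 of 13 genes were lower, beside 13.5% of all genes, and 4 of them were among the 8 genes above. LBR, a lamin B receptor with sterol reductase activity, was at 129 and 151 CPM in isotonic 1 and 2, 149 and 131 CPM in hypertonic 1 and 2, and 55.2 and 55.1 CPM in rescue, a fall by 1.64 (SE 0.195, edgeR adjusted p = 0.0121). LSS and CYP51A1, for lanosterol synthase and lanosterol demethylase, were high in isotonic 2 and hypertonic 1 as SQLE was, LSS at 97.3, 156, 163 and 96 CPM in the isotonic and hypertonic libraries in order and at 60.3 and 59.6 CPM in rescue. Neither passed (adjusted p = 0.0836 and 0.0949).

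Of the 13 control genes 3 were lower in rescue than in isotonic, beside 13.5% of all genes, SREBF2 and ERLIN1 among them. ERLIN1, a lipid raft protein of the endoplasmic reticulum that binds SREBP, SCAP and INSIG1, fell by 0.95 (edgeR adjusted p = 0.0109), and against hypertonic its call was lost with library total scaling (0.0513). SCAP was at 85.4 and 96.8 CPM in isotonic 1 and 2, 101 and 84.0 CPM in hypertonic 1 and 2, and 72.2 and 71.2 CPM in rescue, which did not pass in edgeR (-0.65, adjusted p = 0.0848) and passed in DESeq2 (0.0391). INSIG2, the second INSIG gene, was at 20.9, 32.2, 32.9 and 19.1 CPM in the isotonic and hypertonic libraries and at 19.2 and 21.3 CPM in rescue (-0.70, adjusted p = 0.297). SREBF1, which encodes SREBP1, the regulator of fatty acid synthesis, was at 62.2, 75.1, 82.1, 59.9, 78.0 and 73.6 CPM in the same order, so its rescue libraries lay within the range of the others. Its change of -0.16 against isotonic (adjusted p = 0.698) became 0.14 with library total and 0.05 with upper quartile scaling.

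In the uptake and transport list 2 of 11 genes were lower, which is near the 13.5% of all genes lower in rescue than in isotonic. STARD4, a carrier of cholesterol between membranes and a known SREBP2 target, was at 49.4, 57.7, 58.1 and 50.8 CPM in the isotonic and hypertonic libraries and at 32.3 and 32.4 CPM in rescue, a fall by 1.03 (edgeR adjusted p = 0.0298; 0.0537 with upper quartile scaling). SOAT1, which esterifies cholesterol for storage, fell by 0.81 (adjusted p = 0.0276; 0.0588 with upper quartile scaling). MYLIP, an LXR-induced ubiquitin ligase that limits cholesterol uptake, was at 24.3, 90.3, 87.2, 24.6, 44.5 and 44.4 CPM, with rescue between the pairs, and its change was -1.39 against isotonic 2 and 0.65 against isotonic 1.

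The list of LXR and efflux genes, which act when cells hold excess sterol, had 0 of 8 tested genes lower and 1 higher in rescue than in isotonic. Over all genes 13.5% were lower and 9.61% higher, so neither count stands far from the background. The median of this list was 0.81, against -0.02 over all genes. SMPDL3A, a phosphodiesterase induced by LXR, was at 4.58 and 5.13 CPM in isotonic 1 and 2, 4.21 and 4.42 CPM in hypertonic 1 and 2, and 16.8 and 18.9 CPM in rescue, and rose by 1.58 (SE 0.205, edgeR adjusted p = 0.0131). ABCA1, the exporter that loads cholesterol onto HDL, was at 3.68 and 14.0 CPM in isotonic 1 and 2, 15.4 and 4.21 CPM in hypertonic 1 and 2, and 25.5 and 25.9 CPM in rescue. Both rescue libraries of ABCA1 lay above the other 4, with their mean at 6.98 times isotonic 1 and 1.83 times isotonic 2, and the change of 1.20 did not pass (SE 0.953, adjusted p = 0.417). In the branches that leave the pathway for dolichol, ubiquinone and protein prenylation 1 of 8 genes was lower, near the 13.5% of all genes. It was NUS1, a subunit of the dolichol-chain synthase (-0.83, edgeR adjusted p = 0.0127).

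**Figure D4:**
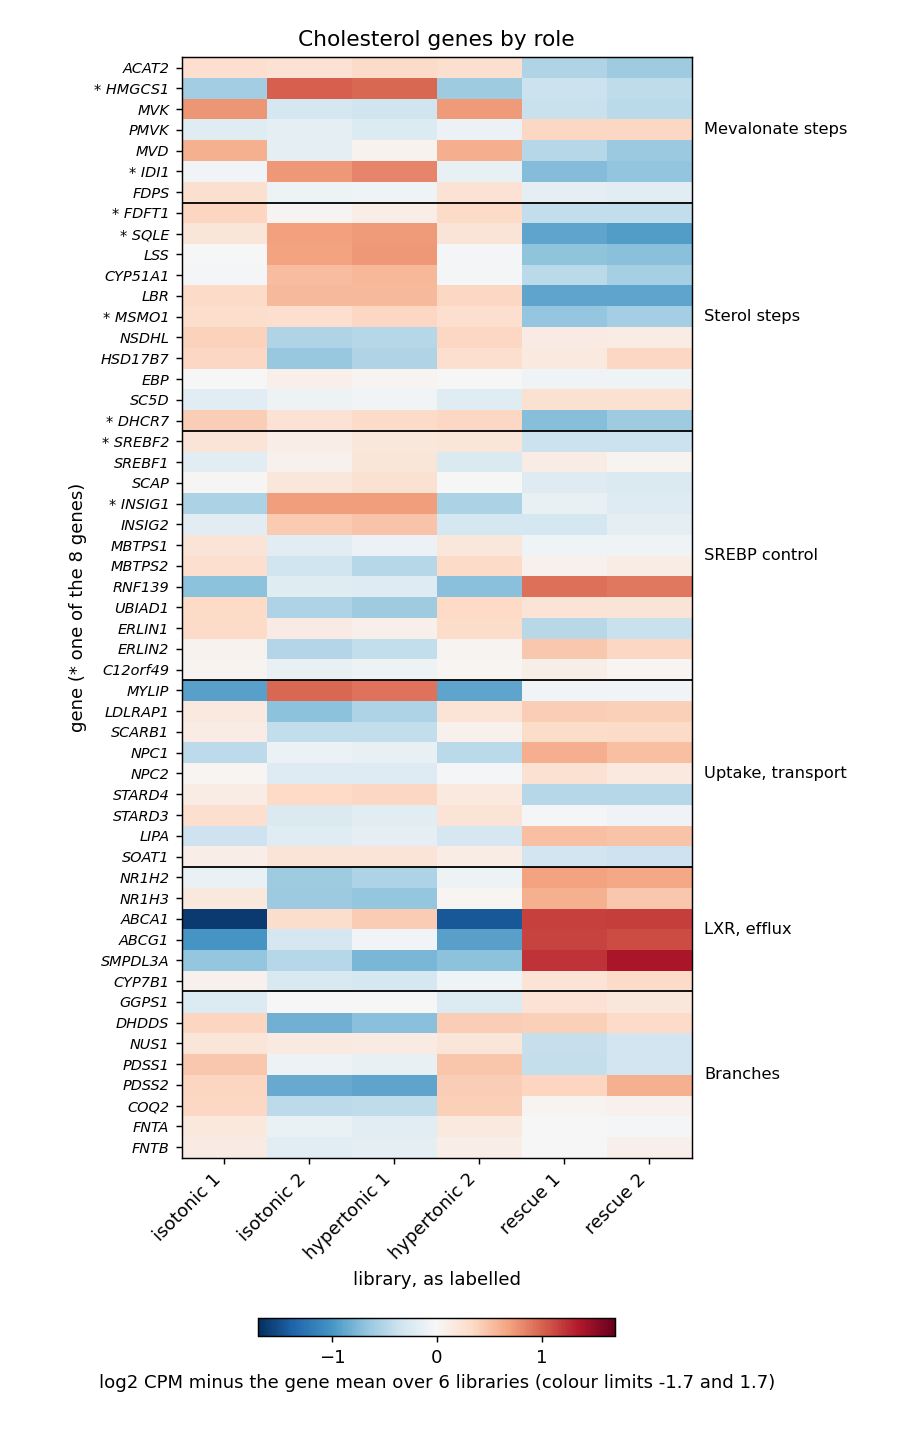
Log2 CPM of each gene minus its mean over the 6 libraries (colour, from -1.7 to 1.7) for the genes of the lists reported here with a mean of at least 5 CPM, in rows by role, and the 6 libraries as labelled in columns. Isotonic 1 matches hypertonic 2 and isotonic 2 matches hypertonic 1, SQLE and LBR are lowest in rescue, and ABCA1, ABCG1 and SMPDL3A are highest in rescue.

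The genes closest to SREBF2 in pattern, by the root mean square difference of centred log2(CPM + 1) over the 6 libraries among 11516 genes outside the lists, were AGO1 (0.0185), MGAT3 (0.0212) and KDELC2 (0.0244). Closest to the mean profile of the other 7 genes were ERF (0.0203), CAMSAP1 (0.0224) and KMT2C (0.0276). AGO1, an Argonaute protein of RNA silencing, was at 193 and 183 CPM in isotonic 1 and 2, 189 and 188 CPM in hypertonic 1 and 2, and 126 and 129 CPM in rescue. KMT2C, a histone methyltransferase, was at 91.2, 137, 135, 91.2, 61.0 and 63.6 CPM in the same order. Genes from outside sterol metabolism thus had nearly the same profile over these libraries.

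The counts of a row can hold reads of overlapping genes, and the use of strand in counting was not given in the sources. No other protein-coding gene overlaps any of the 8 in GENCODE 29. Antisense or long noncoding genes overlap HMGCS1 (AC114947.2, 1445 bases), FDFT1 (AC069185.1, 4641 bases), DHCR7 (AP002387.1, 3484 bases), SREBF2 (SREBF2-AS1, 1587 bases, and the microRNA gene MIR33A in the sense direction) and, over 5050 of its 10019 bases, IDI1 (IDI2-AS1). Of the other genes named, ACAT2 overlaps SOD2 and TCP1, MVK overlaps MMAB, SREBF1 overlaps RAI1 and ERLIN1 overlaps CHUK. CYP51A1 overlaps AC000120.2, over 22645 of its 22653 bases, and AC000120.3, both on the same strand. The levels of CYP51A1 and AC000120.2 were nearly equal, at 102 and 103 CPM in isotonic 1, 149 and 150 CPM in isotonic 2, and 75.4 and 76.6 CPM in rescue 1. Whether the same reads were counted for both was not tested. The values of the genes with an overlap are less certain. Several close neighbours did not share the low level in rescue. NADSYN1, 241 bases from DHCR7, was at 44.2 and 29.01 CPM in isotonic 1 and 2 and at 78.7 and 75.6 CPM in rescue. KLHL2, 4467 bases from MSMO1, was at 34.9 to 45.2 CPM in the isotonic and hypertonic libraries, with rescue at 66.2 and 71.9 CPM, and WDR37, 368 bases from IDI1, at 18.6 to 21.3 and at 28.8 and 29.4 CPM. NIM1K, 8545 bases from HMGCS1, did share the high pair, at 4.09 and 19.2 CPM in isotonic 1 and 2, 17.6 and 4.17 CPM in hypertonic 1 and 2, and 11.2 and 11.9 CPM in rescue. WASHC5, 1977 bases from SQLE, was at 171 and 134 CPM in isotonic 1 and 2, 134 and 172 CPM in hypertonic 1 and 2, and 133 and 137 CPM in rescue. NEIL2, 8227 bases from FDFT1, was at 39.0, 25.5, 26.8, 39.7, 26.3 and 25.9 CPM in the same order. For both genes rescue was near the low pair, isotonic 2 and hypertonic 1. CTSB, 3215 bases from FDFT1, was at 355 to 367 CPM in the isotonic and hypertonic libraries, with rescue at 513 and 482 CPM.

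Markers of other cell types moved with the libraries. The summed level of 7 epithelial markers was 361, 566, 573, 358, 493 and 468 CPM in isotonic 1, isotonic 2, hypertonic 1, hypertonic 2, rescue 1 and rescue 2, carried by KRT8 and KRT18, with CDH1 below 1 CPM in all. That of 5 endothelial markers was 9.36, 30.4, 29.9, 9.01, 45.01 and 43.4 CPM, and that of 6 leukocyte markers lay between 6.86 and 14.3 CPM with CD3E at 0 CPM in the isotonic and hypertonic libraries. Of 5 markers of hepatocytes, which express sterol genes strongly, ALB, APOA1, APOC3 and TTR were below 1 CPM in all 6 libraries, and SERPINA1 was at 69.9 to 114 CPM. Rows with no count numbered 1627, 1270, 1248, 1653, 690 and 699 in the same order, and the 386 olfactory receptor rows, genes that this line should barely express, summed to 61.1, 41.4, 41.0, 58.0, 116 and 125 CPM. The part of these differences in the results for the 8 genes was not tested.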

How the data were processed

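The authors deposited raw counts per gene, whole numbers without normalization, in 1 table of 19940 rows per library. Per the submitters' processing notes, bcl2fastq, TopHat2, Bowtie2 and bedtools were used with GRCh38; versions, annotation and use of strand were not given in the sources. All 19907 names occur in GENCODE 29 (33 on more than 1 row, none reported). CPM were computed by library total.

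Groups follow the titles, so the dispersion below includes the difference between the libraries of the isotonic and of the hypertonic label. All 6 libraries entered 1 edgeR 4.0.16 (R 4.3.3) quasi-likelihood fit with a mean per group, filterByExpr, TMM scaling and a two-sided Benjamini-Hochberg threshold of 0.05 over 18208 genes (common dispersion 0.148, biological coefficient of variation 38.4%, 3 residual degrees of freedom). The steps were run on simulated counts without crossed libraries, and the check of calls used a dispersion below that estimated here. That run does not show how the tests behave with crossed libraries. DESeq2 1.42.0, limma voom 3.58.1, other scalings, no filter, a replicate block, each library left out and fits of each replicate number were alternatives. Low counts limit precision for rare genes.

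Beside the 8 genes, SREBF1, SCAP, INSIG2, MYLIP, ABCA1 and STARD4 were named. So were up to 6 called list genes per direction averaging at least 5 CPM. The 3 most alike genes per profile (mean of at least 10 CPM, pseudocount 1) and protein-coding neighbours of the 8 within 10 kb were also named. LSS, CYP51A1 and FDPS were added after their values were seen. Some list genes that the rule names are not reported here, though counts over the lists include them. The members, lists and tests were chosen with earlier results of these data known. RefSeq promoters held 6 of the 8 genes.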

Additional observations from a re-analysis of the deposited data

How the results depend on the processing

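Replicate numbers did not pair the libraries: deviations of same-numbered libraries correlated at -0.961 between isotonic and hypertonic, -0.030 with rescue for isotonic and 0.043 for hypertonic over 17388 genes. With the replicate block, the counts for rescue against isotonic and against hypertonic were 0 for the 8 genes lower and 0 for list genes lower or higher (smallest adjusted p 0.0832 and 0.0817, 5 of the 8 genes at an unadjusted p under 0.05), as they were over all genes tested, of which 26.9% and 27.4% were at an unadjusted p under 0.05. Pairing isotonic 1 with hypertonic 2 and isotonic 2 with hypertonic 1, chosen after seeing the data, called 15 genes lower and 6 higher in hypertonic, 0 of them among the 8.

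Leaving out 1 or 2 libraries gave 0 to 8 of the 8 genes lower in rescue against isotonic and 0 to 8 against hypertonic. List genes lower ranged from 0 to 37 in both comparisons, and higher from 0 to 18 against isotonic and 0 to 20 against hypertonic. For hypertonic against isotonic the ranges were 0 to 4 (lower) and 0 to 5 (higher) of the 8 genes, and 0 to 25 list genes in either direction. The upper ends of these ranges came from the fits within a number. In those fits large shares of all genes, given above, were called in both directions. There the share of list genes called higher in rescue was below that of all genes, and the share called lower was above it. List genes lower than isotonic numbered 23 with DESeq2. List genes higher than isotonic numbered 5 with DESeq2, 2 with upper quartile, 4 with library total, 2 with RLE scaling and 2 with limma voom; against hypertonic they numbered 4, 2, 4, 1 and 2.

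Signs that changed, with no call lost, were those of SREBF1 (0.054 with upper quartile and 0.14 with library total scaling against isotonic, 0.10 with library total scaling against hypertonic) and, for hypertonic against isotonic, DHCR7 (-0.0010 with library total scaling) and INSIG1 (-0.0013 with DESeq2, -0.0045 with library total, -0.0010 with RLE scaling and -0.017 with the block). Left-out libraries gave ranges across 0 in rescue against isotonic for INSIG1 (-1.26 to 0.15), SREBF1 (-0.36 to 0.065) and MYLIP (-1.39 to 0.65), in rescue against hypertonic for INSIG1 (-1.26 to 0.14), SREBF1 (-0.49 to 0.11) and MYLIP (-1.35 to 0.62), and in hypertonic against isotonic for HMGCS1 (-1.76 to 1.73), IDI1 (-1.004 to 1.04), FDFT1 (-0.095 to 0.13), SQLE (-0.62 to 0.68), MSMO1 (-0.14 to 0.22), DHCR7 (-0.049 to 0.069), SREBF2 (-0.058 to 0.13) and INSIG1 (-1.397 to 1.41). The causes were not tested.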

Other observations

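The genes described here were singled out after their values were seen. Not every enzyme gene was high in isotonic 2 and hypertonic 1. MVK, the mevalonate kinase, was at 22.7 and 10.9 CPM in isotonic 1 and 2, 10.7 and 22.2 CPM in hypertonic 1 and 2, and 10.4 and 9.87 CPM in rescue 1 and 2, so it was low where HMGCS1 was high. NSDHL, a sterol dehydrogenase that acts next to MSMO1, stood at 36.5, 19.6, 19.9, 35.6, 30.7 and 30.6 CPM in the same order, with rescue near the high pair. PDSS2 and DHDDS, of the ubiquinone and dolichol branches, had the same shape, PDSS2 at 28.6, 12.3, 12, 29.8, 28.8 and 33.8 CPM and DHDDS at 48.1, 21.2, 22.9, 49.9, 49.6 and 46.6 CPM. In the fits within a number the log2 change of hypertonic against isotonic was -0.93 in number 1 and 0.88 in number 2 for MVK, and -1.10 and 1.14 for PDSS2.

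RNF139, a sterol-sensing ubiquitin ligase of the endoplasmic reticulum also called TRC8, was at 59.7 and 83.9 CPM in isotonic 1 and 2, 82.7 and 58.9 CPM in hypertonic 1 and 2, and 185 and 179 CPM in rescue 1 and 2. Its change of 1.03 against isotonic did not pass (edgeR adjusted p = 0.0845). ABCG1, an exporter of cholesterol, was at 7.28, 11.95, 14.1, 7.68, 32.2 and 31.3 CPM in the same order and did not pass either (1.41, adjusted p = 0.102). For both genes the rescue libraries lay above all others. Closest in pattern to HMGCS1 were PPARG (root mean square difference 0.0408), a nuclear receptor of lipid metabolism, and VEGFA (0.0422), the angiogenic growth factor. Closest to SQLE was PPARA (0.0402). The genes closest to INSIG1, IDI1, FDFT1, MSMO1 and DHCR7 were, in that order, ZFAND5, ADAMTS12, ARL2BP, FBXL19 and SYNGR2. PPARG was at 22.0 and 72.3 CPM in isotonic 1 and 2, 70.7 and 22.0 CPM in hypertonic 1 and 2, and 25.9 and 26.5 CPM in rescue.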
